A study of Mus musculus with 12 samples.

Results

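DNA replication and its nucleotide supply were followed through 48 mouse genes in embryonic fibroblasts labelled knockout or wild type for the arginine methyltransferase gene Carm1, before and after glucose was withdrawn. The genes were taken from a fixed list of names, with Cdc45 also accepted under the spelling Cdc45l, and all 48 were found among the 23366 gene symbols of the deposited count table. By role they comprise 6 origin recognition genes, 9 licensing genes, 8 origin firing genes, 18 replication fork genes, 4 nucleotide supply genes and 3 regulators of entry into S phase. All 48 had enough reads to be tested, among 13882 genes tested in all.

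Eukaryotic DNA replication is prepared in G1, when the origin recognition complex, Cdc6 and Cdt1 load the ring-shaped MCM helicase onto origins, and starts in S phase. There Cdc7-Dbf4 and cyclin E-dependent kinase activity turn the loaded helicase into a moving fork with Cdc45 and GINS. Polymerase alpha-primase begins each strand, polymerases delta and epsilon extend it on the PCNA clamp, and ribonucleotide reductase, thymidylate synthase and thymidine kinase provide the deoxynucleotides. Most of these genes are transcribed periodically through E2F factors, so their messages are abundant in cycling fibroblasts and scarce in resting ones. Carm1 encodes a methyltransferase that places methyl groups on arginines, histone H3 among its substrates, and works as a coactivator of transcription.

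Total RNA was sequenced from 4 groups of 2 libraries, all from C57BL/6 fibroblasts at passages 3 to 5, and the 4 chromatin immunoprecipitation libraries of the study were not analysed here. KO starved cells, labelled Carm1 knockout, and WT starved cells, labelled wild type, were taken after 18 h in glucose-free DMEM with 10% dialyzed serum, and KO rich and WT rich cells at 0 h in DMEM with 10% serum. The starved media thus differ from the rich medium in the serum as well as in glucose, and no rich-medium library at 18 h was among the samples analysed. The labels do not say how the Carm1 allele was disrupted, how many embryos the cells came from, or that the 2 libraries of a group came from separate cultures. The p-values here therefore measure the spread between these libraries, which may be technical.

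Total counts lay between 8447016 in KO rich library 1 and 28155438 in WT starved library 2, and levels are given as CPM, counts scaled to library size with TMM factors. On that scale 3 counts are worth 0.104 to 0.369 CPM. Carm1 itself stood at 53.9 and 58.6 CPM in KO starved, 48.1 and 70.8 in KO rich, 176 and 164 in WT starved and 207 and 204 in WT rich libraries. Reads on Carm1 thus remained in the KO libraries, at lower levels than in the WT libraries. The labels do not state which part of the gene was disrupted, so the level of that part alone is not given. The KO rich pair stood apart: the SD of the log2 ratio between its 2 libraries over the 48 genes was 0.621, against 0.125 in KO starved, 0.0948 in WT starved and 0.0759 in WT rich libraries. Of 10 fibroblast markers, Dcn had 1172 to 1954 CPM and Thy1 124 to 180.4 CPM in KO libraries, whereas both were below 1 CPM in WT libraries, where Lum had no count. Others of the 10 were lower in KO. Col1a1 had 657 and 636 CPM in KO starved, 804 and 1207 in KO rich, 1400.2 and 1506 in WT starved and 2774 and 2807 in WT rich libraries. Vim had 2278 and 2146 CPM in KO starved, 1429.75 and 1973 in KO rich, 2507 and 2764 in WT starved and 2195 and 2142 in WT rich libraries. Summed fibroblast markers ranged over 16448 to 16934 CPM in KO starved, 15531 to 18723 in KO rich, 7865 to 8073 in WT starved and 10953 to 11032 in WT rich libraries. The largest part of the KO sums was Fn1. It had 10587 and 10327 CPM in KO starved, 9078 and 10152 in KO rich, 3221 and 2594 in WT starved and 3419 and 3318 in WT rich libraries. Col3a1, Pdgfra and Pdgfrb were also higher in KO than in WT libraries of the same medium. The 5 endothelial markers summed to 242 to 245 CPM in KO starved, 132 to 158 in KO rich, 3.79 to 5.02 in WT starved and 2.09 to 2.28 in WT rich libraries, nearly all of it Cdh5 in the KO libraries. Tie1 had no count in any library and Kdr stayed below 0.1 CPM in KO. The 4 neural markers summed to 360.2 to 374 CPM in KO starved, 238 to 248 in KO rich, 101 to 117 in WT starved and 110.4 to 113 in WT rich libraries, with Sox2 at 0. Leukocyte (7 genes), epithelial (5) and skeletal muscle (4) markers summed to at most 7.26, 53.1 and 5.64 CPM, with Cd3e, Epcam and Myog among those at or near 0. The epithelial sum was mostly Krt19, at 52.4 and 48.8 CPM in KO starved, 17.2 and 27.6 in KO rich, 13.7 and 14.9 in WT starved and 34.9 and 35.2 in WT rich libraries. The fibroblast, endothelial and neural sums move with genotype. With starvation the endothelial sum moves in both genotypes, the neural sum in KO cells and the fibroblast sum in WT cells. The epithelial sum rises with starvation in KO cells and falls in WT cells, so KO is below WT in rich medium and above it after starvation. The part of these sums in the results was not tested. In the RefSeq annotation (GRCm38.p6) 15 of the 48 genes overlap another protein-coding gene (Orc1, Orc3, Orc4, Mcm7, Cdc45, Gins2, Rfc4, Pold2, Pole2, Rpa1, Lig1, Fen1, Tk1, Ccne2 and E2f1), and their counts are less certain, as the labels do not say whether strand was used in counting.

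Because many replication genes carry E2F sites, RefSeq promoter windows (GRCm38.p6, 250 bases before to 50 after an annotated start; 39 of the 48 genes had one) were searched for letters. The E2F letters were TTTGGCGC, TTTCGCGC, TTTGCCGC and TTTCCCGC on both strands, and they occurred in 14 of the 39 genes (35.9%), against 466 of 10088 tested genes with a window (4.62%) and 744 of all 32851 windows (2.26%). The CCAAT box (CCAAT on both strands) occurred in 22 of the 39 (56.4%), against 43.5% of tested genes with a window. The CHR letters TTTGAA (both strands) occurred in 7 of the 39 (17.9%), against 14.2% of tested genes with a window. Over all windows the shares were 37.4% and 17.9%. E2F letters were found in 6 of 7 licensing genes and in 0 of 4 nucleotide supply genes. Matches overlapped each other in Mcm5, Mcm6 and Mcm7. Windows are printed for genes on which the results turn. These are Cdc6, Orc1, Mcm3 and Gins3, which hold the E2F letters and fell with starvation in KO cells, and Rrm2 and Tk1, which hold none. Rrm2 fell with starvation in both genotypes and Tk1 in WT cells. The windows are examples only: Cdt1, Mcm5, Orc3, Pold1 and Rfc3 hold the E2F letters and had no starvation call in KO cells. Each window runs 5′ to 3′ along its gene, and capitals mark matches to the E2F or CCAAT letters on either strand. The windows are Cdc6 chr11:98907901-98908200 (+), Orc1 chr4:108579204-108579503 (+), Mcm3 chr1:20820263-20820562 (−), Gins3 chr8:95633309-95633608 (+), Rrm2 chr12:24708004-24708303 (+) and Tk1 chr11:117825965-117826264 (−).
Cdc6: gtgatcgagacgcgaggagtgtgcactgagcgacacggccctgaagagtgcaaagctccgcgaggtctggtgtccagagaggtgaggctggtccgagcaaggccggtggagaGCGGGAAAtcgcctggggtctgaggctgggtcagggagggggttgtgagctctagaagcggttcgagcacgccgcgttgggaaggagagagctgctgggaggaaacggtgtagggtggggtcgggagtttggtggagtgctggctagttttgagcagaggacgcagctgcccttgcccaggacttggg
Orc1: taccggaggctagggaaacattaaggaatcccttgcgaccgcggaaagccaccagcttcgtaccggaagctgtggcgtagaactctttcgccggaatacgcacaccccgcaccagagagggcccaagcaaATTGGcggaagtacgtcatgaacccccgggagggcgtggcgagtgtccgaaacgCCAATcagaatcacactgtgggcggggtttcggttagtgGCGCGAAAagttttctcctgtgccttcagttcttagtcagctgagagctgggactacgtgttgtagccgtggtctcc
Mcm3: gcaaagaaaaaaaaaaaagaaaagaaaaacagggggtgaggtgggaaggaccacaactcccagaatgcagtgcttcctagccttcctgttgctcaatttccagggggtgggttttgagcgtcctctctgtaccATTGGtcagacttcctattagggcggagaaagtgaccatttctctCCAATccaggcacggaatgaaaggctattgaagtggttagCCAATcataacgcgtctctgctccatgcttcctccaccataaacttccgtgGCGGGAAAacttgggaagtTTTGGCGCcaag
Gins3: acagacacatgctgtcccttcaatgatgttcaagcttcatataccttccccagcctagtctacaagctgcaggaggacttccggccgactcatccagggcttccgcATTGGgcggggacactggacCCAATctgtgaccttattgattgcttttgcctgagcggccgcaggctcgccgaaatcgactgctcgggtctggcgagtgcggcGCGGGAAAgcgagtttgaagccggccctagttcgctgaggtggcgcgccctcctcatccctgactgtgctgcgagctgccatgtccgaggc
Rrm2: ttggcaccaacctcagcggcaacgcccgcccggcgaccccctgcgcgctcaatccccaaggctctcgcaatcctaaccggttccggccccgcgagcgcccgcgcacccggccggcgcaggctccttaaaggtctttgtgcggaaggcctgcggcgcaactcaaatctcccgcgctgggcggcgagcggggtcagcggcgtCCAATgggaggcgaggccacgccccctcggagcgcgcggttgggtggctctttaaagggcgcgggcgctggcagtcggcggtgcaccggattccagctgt
Tk1: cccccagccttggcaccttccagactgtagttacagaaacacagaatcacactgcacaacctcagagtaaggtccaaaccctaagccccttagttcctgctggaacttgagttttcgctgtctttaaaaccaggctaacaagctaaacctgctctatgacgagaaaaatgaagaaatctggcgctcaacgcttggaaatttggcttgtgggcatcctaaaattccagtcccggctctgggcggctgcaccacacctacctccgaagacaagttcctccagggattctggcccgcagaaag
A match is a description of letters and not evidence of binding. Of the 22 genes with a window whose starvation responses differed between the genotypes in the test described below, 9 held the E2F letters, and of the other 17, 5 did.

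Replication gene levels were lower in starved than in rich KO cells, and somewhat higher in starved than in rich WT cells. Summed over the 48 genes, the level was 3610 and 3553 CPM in KO starved, 6380 and 6219 in KO rich, 7045 and 7047 in WT starved, and 6189 and 6188 in WT rich libraries. In this sum genes with many reads weigh most. The KO starved sum was 56.8% of the KO rich mean, and the WT starved sum 114% of the WT rich mean. In 36 of the 48 genes both KO starved libraries lay below all 6 others, a pattern held by 11.5% of all genes tested. In 25 of the 48 both WT starved libraries lay above all 6 others, against 22.3% of all genes tested. In bulk RNA, fewer cells expressing these genes and less RNA per cell cannot be told apart.

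**Figure D1:**
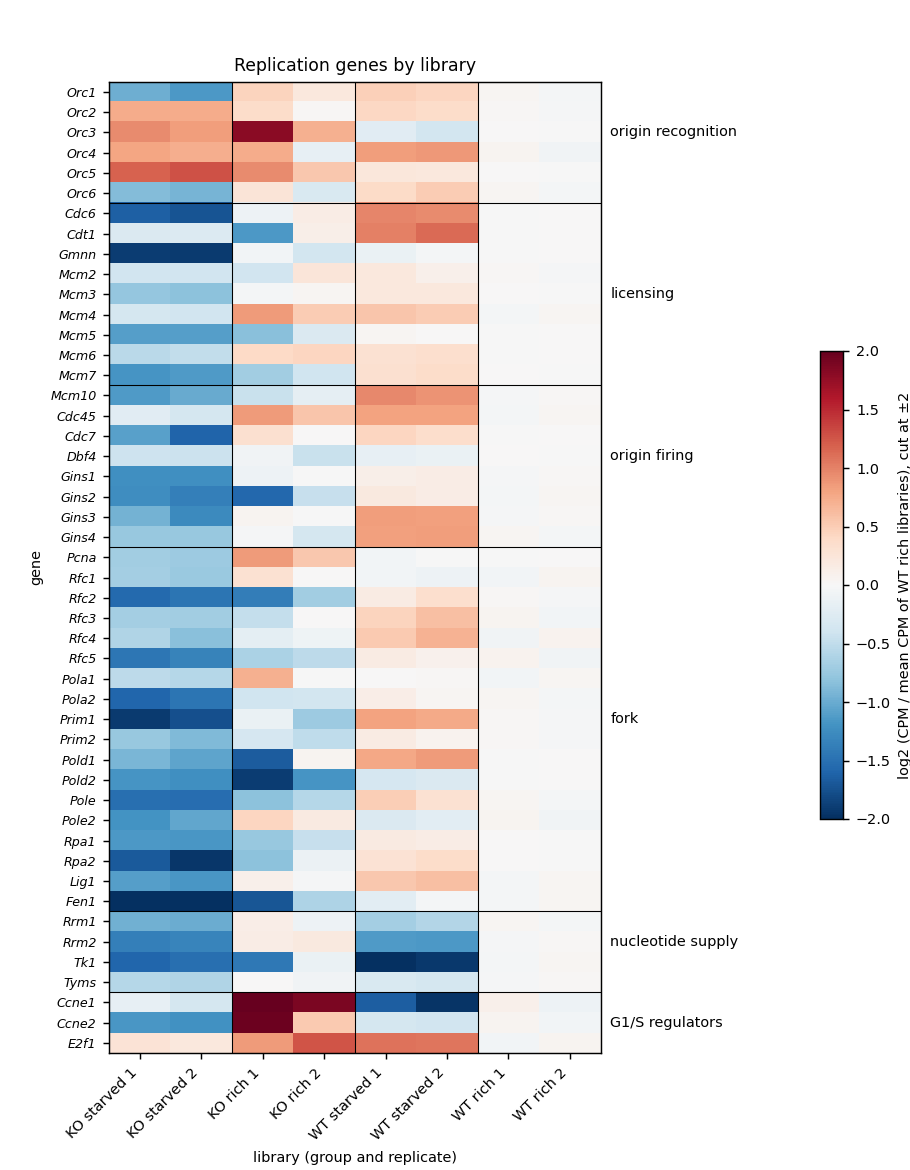
Level of each of the 48 genes (rows, by role) in each of the 8 libraries (columns), as log2 of its CPM over the mean CPM of the 2 WT rich libraries, cut at ±2. Most licensing, firing and fork genes are blue in both KO starved libraries, and the nucleotide genes are blue in both KO starved and WT starved libraries.

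Each gene was tested with edgeR's quasi-likelihood test in 1 fit over the 8 libraries, with p-values adjusted over all 13882 genes (threshold 0.05). Values after ± are SEs of log2 values. In KO cells, starvation lowered 32 of the 48 genes and raised 1, against 9.78% and 8.44% of all genes tested, with a median log2 change of -0.85 over the 48 and 0 over all genes. In WT cells, starvation raised 11 and lowered 4, against 14.8% and 18.0% of all genes, with a median of 0.21 over the 48 and 0 over all genes. The test of the difference itself, the KO response minus the WT response, was negative past the threshold for 28 genes and positive for 0, against 5.91% and 7.42% of all genes, with medians of -1.08 and 0.00. For that difference, 33 genes were negative and 0 positive at an unadjusted p under 0.05, and DESeq2 and limma-voom also gave 0 positive calls (limma-voom with library quality weights gave 1). The 2 responses share no library, but both enter the difference, and the KO starved and WT starved groups enter the genotype comparisons as well.

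The genotypes were also compared within each medium. After starvation 35 genes were lower in KO than in WT and 3 were higher, against 26.8% and 27.8% of all genes tested, with a median log2 difference of -1.16 over the 48 and -0.02 over all genes. In rich medium 10 were lower and 9 higher, against 20.6% and 23.4% of all genes, shares close to the background, with a median of -0.04 over the 48 and 0.00 over all genes. The summed KO level was 50.8% of WT after starvation and 102% of WT in rich medium.

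Counts of calls depended on which libraries entered. Calls over all genes tested mostly rose and fell along with them, so the changes below are not gains or losses of the 48 genes alone. Without a KO rich library, rich-medium calls in either direction and WT starvation calls downward were shares near or below those of all genes tested. With KO rich library 1 or 2 left out, KO starvation lowered 42 and 37 genes and WT starvation raised 26 and 27. The difference was then negative for 38 and 39, and KO in rich medium was lower for 17 and 18 and higher for 11 and 17. With either KO starved library left out, KO starvation lowered 9 and 8 genes, and the difference was negative for 13 and 12. With a WT rich library left out the difference was negative for 11 and 10 genes, WT starvation raised 3 in either case, and rich-medium calls came to 1 and 2 lower and 2 and 3 higher. With a WT starved library left out the difference was negative for 13 and 15 and WT starvation raised 5 and 3. WT starvation raised 7 and 8 genes without a KO starved library, and it lowered 11 and 10 without a KO rich library and 2 without either WT starved library. Rich-medium calls came to 6 lower without any 1 of the starved libraries. After starvation, between 30 and 42 genes were lower in KO whichever library was left out, and 5 were higher without either KO rich library and 2 without any 1 of the starved libraries. The upward KO call became 4 without either KO rich library and 0 without any other 1, and 5 and 2 differences were positive without KO rich library 1 or 2. When only the 4 KO libraries were fitted, no gene of the 12693 tested there passed the threshold in edgeR (0 of the 48, with 32 lower and 0 higher at an unadjusted p under 0.05). The smallest adjusted p among the 48 was 0.0601 there, so the KO starvation calls rest on the spread shared with the WT libraries. DESeq2 and limma-voom, run on all 8 libraries, called 37 and 32 lower.

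**Figure D2:**
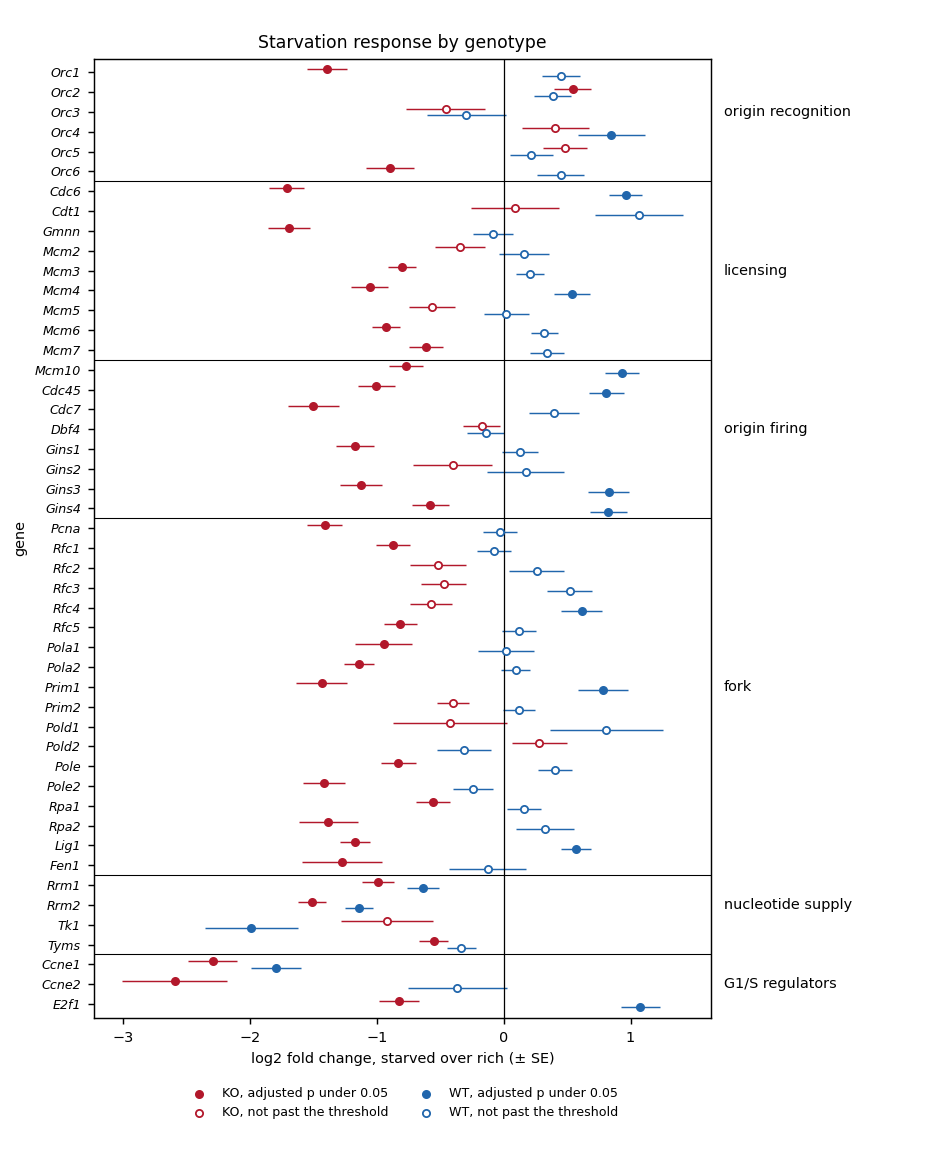
Log2 fold change of each gene with starvation (starved over rich) in KO cells (red) and WT cells (blue), with SE as bars from the fit over 8 libraries; filled points passed an adjusted p under 0.05. The 32 genes that fell in KO cells lie left of 0 and the 11 that rose in WT cells right of it, while Rrm1, Rrm2 and Ccne1 are filled on the left in both.

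The joint pattern over the starvation tests was uneven. A set of 9 genes fell in KO cells and rose in WT cells: Cdc6, Mcm4, Mcm10, Cdc45, Gins3, Gins4, Prim1, Lig1 and E2f1. Another 20 fell in KO cells with no call in WT cells, and 3 fell in both (Rrm1, Rrm2 and Ccne1). Tk1 fell in WT cells alone among the calls, Orc4 and Rfc4 rose in WT cells alone, Orc2 rose in KO cells alone, and 12 genes passed in neither. With each library left out in turn, Cdc6, Gmnn, Pcna, Lig1, Rrm2 and Ccne1 kept their KO calls, and Cdc6, Mcm10, Rrm2, Ccne1 and E2f1 their WT calls, so that of the 9 genes Cdc6 kept both. A call in 1 genotype alone is not a test of a difference, which is given below for some of the genes named and not for others.

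Most licensing genes were lower in starved KO than in starved WT cells. Of 9, 6 fell in KO cells, 2 rose in WT cells, 8 were lower in KO after starvation, and 6 had a more negative response in KO. The corresponding shares of all genes tested were 9.78%, 14.8%, 26.8% and 5.91%. Cdc6 encodes the loader that joins the origin recognition complex and helps place MCM rings. It had 24.9 and 23.4 CPM in KO starved, 72.1 and 86.0 in KO rich, 152 and 149.9 in WT starved and 76.9 and 78.4 in WT rich libraries. Both WT starved libraries were above all others and both KO starved libraries below. Its log2 change was -1.71 ± 0.14 (adjusted p = 0.000979) in KO and 0.96 ± 0.13 (adjusted p = 0.00228) in WT cells, a difference of -2.67 ± 0.19 (adjusted p = 0.00071). All of these Cdc6 calls held with each library left out in turn. Gmnn encodes geminin, which binds Cdt1 and blocks relicensing. It had 9.91 and 9.81 CPM in KO starved, 35.7 and 28.5 in KO rich, 33.7 and 36.0 in WT starved and 36.5 and 37.2 in WT rich libraries. It was low in KO starved libraries alone, with a log2 change of -1.70 ± 0.16 (adjusted p = 0.00163) in KO cells and -0.08 ± 0.16 (adjusted p = 0.73) in WT cells. The difference was -1.61 ± 0.23 (adjusted p = 0.0060), and its largest adjusted p with a library left out was 0.0513.

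Cdt1 encodes the partner of Cdc6 in helicase loading. It had 66.02 and 66.6 CPM in KO starved, 36.2 and 87.7 in KO rich, 162 and 176 in WT starved and 80.1 and 80.8 in WT rich libraries. The KO rich libraries disagreed by more than 2-fold, spanning the KO starved values, and Cdt1 passed in no starvation test: 0.09 ± 0.35 (adjusted p = 0.902) in KO and 1.07 ± 0.35 (adjusted p = 0.0524) in WT. After starvation it was lower in KO, at -1.35 ± 0.35 (adjusted p = 0.0142), with an adjusted p of up to 0.0801 when a KO starved or WT starved library was left out. Mcm4 encodes a helicase subunit. It had 201 and 198 CPM in KO starved, 464 and 366 in KO rich, 378 and 367 in WT starved and 249 and 265 in WT rich libraries. It was the MCM2-7 subunit that both fell in KO (-1.06 ± 0.14, adjusted p = 0.00471) and rose in WT (0.54 ± 0.14, adjusted p = 0.027), and in rich medium it was higher in KO by 0.69 ± 0.14 (adjusted p = 0.00752). Its difference between responses was -1.59 ± 0.20 (adjusted p = 0.00435), which held with each library left out. Its KO call was lost without either KO starved library (adjusted p up to 0.0693) and its WT call without any 1 of the KO starved, WT starved and WT rich libraries (adjusted p up to 0.175). The rich-medium call was lost without either WT rich library (adjusted p up to 0.072).

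The other MCM subunits differed among themselves. Mcm3 had 185 and 179 CPM in KO starved, 307 and 327 in KO rich, 365 and 366 in WT starved and 319 and 315 in WT rich libraries. It was lower in KO starved libraries than in any other and passed in neither the WT nor the rich-medium test. Its log2 change was -0.80 ± 0.11 (adjusted p = 0.00499) in KO, and the difference between responses was -1.01 ± 0.16 (adjusted p = 0.00877), lost with 6 of the 8 libraries left out (adjusted p up to 0.0794). Mcm6 fell likewise in KO (-0.93 ± 0.11, adjusted p = 0.00319), with a difference of -1.25 ± 0.15 (adjusted p = 0.00396). Both KO calls were lost without either KO starved library, with adjusted p up to 0.0859. Mcm7 had 143 and 148 CPM in KO starved, 200.1 and 246 in KO rich, 403 and 419 in WT starved and 324 and 323 in WT rich libraries. It was lower in KO than in WT both after starvation (-1.497 ± 0.14, adjusted p = 0.000129) and in rich medium (-0.54 ± 0.13, adjusted p = 0.0162), the rich-medium call lost without either WT rich library (adjusted p up to 0.0953). Mcm5 was lower likewise (-1.13 ± 0.18, adjusted p = 0.00181 after starvation and -0.54 ± 0.18, adjusted p = 0.0466 in rich medium, the rich-medium call lost with 6 of the 8 libraries left out, adjusted p up to 0.173). Mcm2 had 291 and 290.0 CPM in KO starved, 291 and 447 in KO rich, 439.8 and 408 in WT starved and 384 and 375 in WT rich libraries. It passed in none of the 5 tests, its KO rich libraries lying on either side of the WT rich ones.

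Several origin firing genes moved in opposite directions in KO and WT cells. Of 8, 6 fell in KO cells and 4 of these rose in WT cells, and 7 were lower in KO after starvation. Among all genes tested, 9.78% fell in KO, 14.8% rose in WT and 26.8% were lower in KO after starvation. Mcm10 encodes a factor that joins the helicase as it is activated. It had 43.5 and 47.5 CPM in KO starved, 70.4 and 84.7 in KO rich, 187 and 179.6 in WT starved and 94.8 and 97.01 in WT rich libraries. Both WT starved libraries were above all others and both KO starved below, with log2 changes of -0.77 ± 0.14 (adjusted p = 0.0107) in KO and 0.93 ± 0.14 (adjusted p = 0.00278) in WT. The difference of -1.70 ± 0.19 (adjusted p = 0.00289) held with each library left out, and the KO call alone was lost without either KO starved library (adjusted p up to 0.123). Cdc45 encodes a part of the active helicase. It had 67.3 and 61.3 CPM in KO starved, 142 and 116 in KO rich, 138 and 138 in WT starved and 76.3 and 81.0 in WT rich libraries. After starvation it was lower in KO (-1.10 ± 0.14, adjusted p = 0.000622) and in rich medium higher (0.71 ± 0.14, adjusted p = 0.00618, adjusted p 0.0628 without WT rich library 1). Its responses were -1.004 ± 0.14 (adjusted p = 0.00528) in KO and 0.81 ± 0.14 (adjusted p = 0.00563) in WT, calls lost with a library left out (adjusted p up to 0.0800 and 0.0632). The difference of -1.81 ± 0.20 (adjusted p = 0.00272) held throughout.

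GINS, encoded by Gins1 to Gins4, completes the active helicase. Gins3 had 12.1 and 9.60 CPM in KO starved, 24.2 and 23.1 in KO rich, 41.6 and 41.0 in WT starved and 23.0 and 23.6 in WT rich libraries. It too was highest in WT starved and lowest in KO starved libraries, and its difference between responses was -1.95 ± 0.23 (adjusted p = 0.00325). Gins4 had a difference of -1.41 ± 0.21 (adjusted p = 0.00693) and Gins1 of -1.30 ± 0.21 (adjusted p = 0.00912), both lost with 6 of the 8 libraries left out (adjusted p up to 0.076). Gins2 passed in neither starvation test, with 21.3 and 45.9 CPM in its KO rich libraries, and was lower in KO after starvation, at -1.48 ± 0.31 (adjusted p = 0.00611), adjusted p 0.0522 without KO starved library 2. Cdc7 encodes the kinase that phosphorylates loaded MCM. It had 25.2 and 17.6 CPM in KO starved, 67.3 and 54.2 in KO rich, 72.6 and 68.7 in WT starved and 53.3 and 54.0 in WT rich libraries. In KO cells it fell by 1.502 ± 0.20 (adjusted p = 0.00462) on the log2 scale, and the difference between responses was -1.90 ± 0.28 (adjusted p = 0.00731). Its activator Dbf4 had 113 and 111 CPM in KO starved, 143 and 109.9 in KO rich, 135 and 137 in WT starved and 151 and 149.6 in WT rich libraries. Dbf4 passed in none of the 5 tests, with values of -0.17 ± 0.15 in KO and -0.14 ± 0.15 in WT starvation. The Cdc7 calls were lost without KO starved library 2 (adjusted p up to 0.0528) in KO, and without WT starved library 1 or either WT rich library in the difference (adjusted p up to 0.0543).

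**Figure D3:**
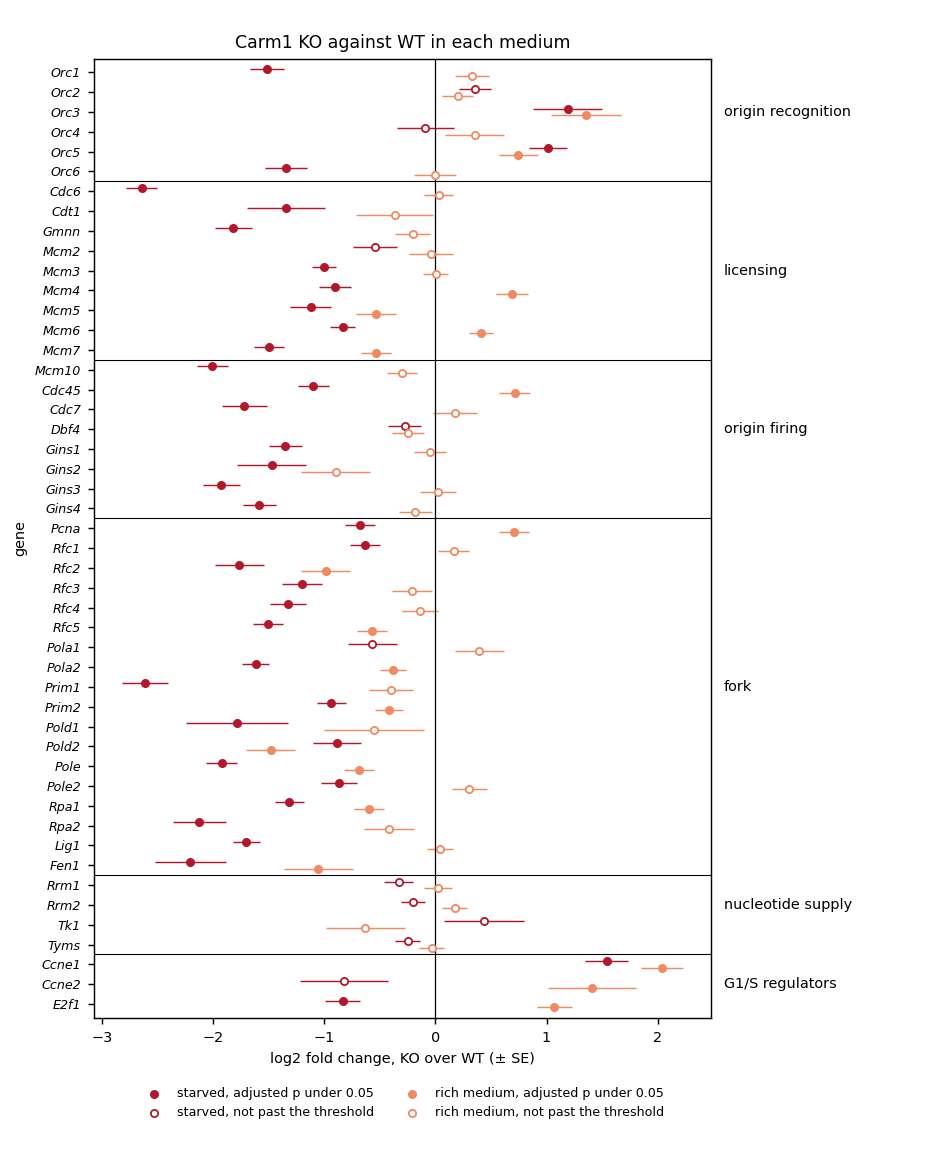
Log2 fold change of each gene between genotypes (KO over WT) after starvation (dark red) and in rich medium (orange), with SE as bars; filled points passed an adjusted p under 0.05. After starvation 35 genes are filled left of 0, whereas in rich medium filled points lie on both sides, 10 left and 9 right.

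Replication fork genes were lower in starved KO cells almost throughout. Of 18, 12 fell in KO cells, 3 rose in WT cells, and 17 were lower in KO than in WT after starvation. The exception was Pola1, at -0.57 ± 0.22 (adjusted p = 0.0645). Background shares were 9.78% falling in KO, 14.8% rising in WT and 26.8% lower in KO after starvation. In rich medium 8 of the 18 were lower in KO and 1 was higher, against 20.6% and 23.4% of all genes tested, with a median log2 difference of -0.41. Of these 9 calls, that of Pold2 held with every library left out and the other 8 were lost without at least 1. Summed fork levels were 1057 and 1038 CPM in KO starved, 2069 and 2008 in KO rich, 2601 and 2609.6 in WT starved and 2241 and 2243 in WT rich libraries. Prim1 encodes the catalytic primase subunit. It had 22.2 and 24.7 CPM in KO starved, 76.5 and 50.8 in KO rich, 146 and 142 in WT starved and 85.3 and 82.0 in WT rich libraries. Its difference after starvation was -2.62 ± 0.21 (adjusted p = 6.79e-05), among the larger ones, and that between responses was -2.22 ± 0.28 (adjusted p = 0.00413), and both held with each library left out. Lig1 encodes the ligase that joins Okazaki fragments. It had 102 and 97.5 CPM in KO starved, 235 and 215 in KO rich, 319 and 331 in WT starved and 213 and 224 in WT rich libraries. Lig1 fell in KO (-1.17 ± 0.12, adjusted p = 0.00183) and rose in WT (0.57 ± 0.12, adjusted p = 0.0101), the WT call being lost without any 1 of the 4 WT libraries (adjusted p up to 0.105). The difference of -1.75 ± 0.17 (adjusted p = 0.00181) held throughout.

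Pcna, the sliding clamp, behaved otherwise in WT cells. It had 199 and 194 CPM in KO starved, 578 and 468 in KO rich, 309.6 and 321 in WT starved and 318 and 324 in WT rich libraries. Levels in KO rich libraries were the highest and in KO starved the lowest, while WT starved and WT rich libraries overlapped. Its log2 change was -1.41 ± 0.14 (adjusted p = 0.00163) in KO and -0.03 ± 0.14 (adjusted p = 0.914) in WT. The difference of -1.38 ± 0.19 (adjusted p = 0.00587) was lost without KO starved library 2 or either WT rich library (adjusted p up to 0.0522). In rich medium Pcna was higher in KO by 0.70 ± 0.14 (adjusted p = 0.00549), adjusted p 0.0552 without a WT rich library. Of the 5 clamp loader genes, Rfc1 and Rfc5 fell in KO cells and Rfc4 rose in WT cells. These calls were lost without a KO starved library (adjusted p up to 0.106) and with 6 of the 8 libraries left out singly (adjusted p up to 0.186). All 5 were lower in KO after starvation, from -0.63 ± 0.14 for Rfc1 to -1.76 ± 0.22 for Rfc2 on the log2 scale. The Rfc1 difference was lost without either KO starved library (adjusted p up to 0.0596).

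Pole and Pole2, of polymerase epsilon, were lower in KO than in WT after starvation. Pole4, of the same polymerase but from a list beside the 48, was higher in KO in both media. Its log2 differences were 0.82 ± 0.13 (adjusted p = 0.00160) starved and 1.00 ± 0.13 (adjusted p = 0.000949) rich. Pole encodes the catalytic subunit. It had 67.8 and 67.2 CPM in KO starved, 110.3 and 129.96 in KO rich, 273 and 240.3 in WT starved and 199.8 and 188 in WT rich libraries. It was lower in KO in both media, at -1.93 ± 0.14 (adjusted p = 4.86e-05) starved and -0.69 ± 0.14 (adjusted p = 0.00616) rich. The rich-medium call was lost without WT rich library 1 (adjusted p up to 0.057). The accessory gene Pole2 fell by 1.42 ± 0.16 (adjusted p = 0.00293) on the log2 scale in KO, adjusted p 0.0546 without KO starved library 1. Pold1 encodes the catalytic subunit of polymerase delta. It had 46.1 and 41.9 CPM in KO starved, 27.3 and 89.7 in KO rich, 148 and 156 in WT starved and 86.2 and 87.4 in WT rich libraries. The KO rich libraries differed widely in this gene and lay on either side of the KO starved ones. Its KO change of -0.43 ± 0.45 (adjusted p = 0.548) reversed with 1 library left out, to 0.70 without KO rich library 2. After starvation Pold1 was lower in KO (-1.79 ± 0.46, adjusted p = 0.0135), a call lost with any starved library left out (adjusted p up to 0.0859). Pold2 encodes the accessory subunit of the same polymerase. It had 47.8 and 45.9 CPM in KO starved, 29.0 and 47.5 in KO rich, 85.2 and 88.2 in WT starved and 108 and 108 in WT rich libraries. It was lower in KO in both media, at -0.89 ± 0.22 (adjusted p = 0.0108) starved and -1.48 ± 0.22 (adjusted p = 0.00173) in rich medium, and the rich-medium call held with each library left out.

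Single-strand binding and flap removal genes followed the same order after starvation. Rpa2 encodes a subunit of replication protein A. It had 16.9 and 14.1 CPM in KO starved, 30.8 and 49.7 in KO rich, 65.8 and 69.8 in WT starved and 54.3 and 53.9 in WT rich libraries. Its difference after starvation was -2.13 ± 0.24 (adjusted p = 0.000317). Rpa1 was lower in KO in both media (-1.32 ± 0.13, adjusted p = 0.000209 starved and -0.60 ± 0.13, adjusted p = 0.00972 rich, the rich-medium call adjusted p up to 0.0696 without a WT rich library). Fen1 encodes the flap endonuclease. It had 21.7 and 23.6 CPM in KO starved, 34.8 and 74.1 in KO rich, 98.6 and 111 in WT starved and 112 and 117 in WT rich libraries. Its KO rich libraries differed more than 2-fold. Its difference between KO and WT was -2.21 ± 0.32 (adjusted p = 0.00109) after starvation and -1.06 ± 0.31 (adjusted p = 0.0289) in rich medium, where the call was lost with 6 of the 8 libraries left out (adjusted p up to 0.118). Pola2 and Prim2, accessory subunits of polymerase alpha-primase, were lower in KO after starvation, at -1.62 ± 0.12 (adjusted p = 5.38e-05) for Pola2 and -0.94 ± 0.13 (adjusted p = 0.000816) for Prim2. Over the 12 fork genes with a more negative response in KO, Prim1 and Lig1 kept the call with each library left out, and the other 10 lost it at adjusted p up to 0.204.

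**Figure D4:**
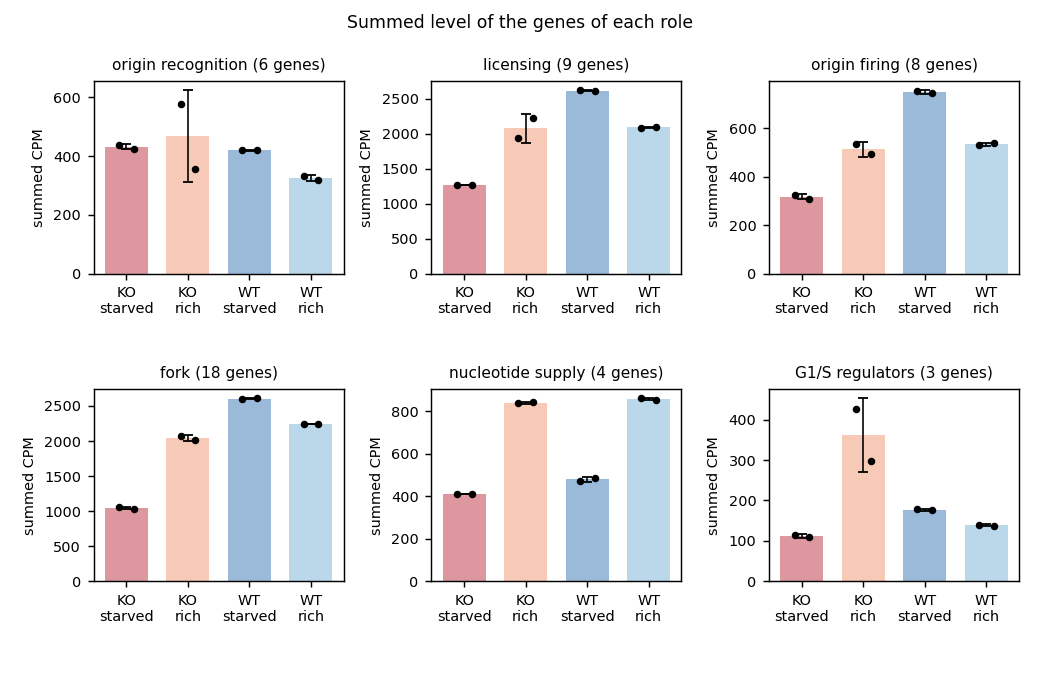
Summed CPM of the genes of each role, with bars for the mean of 2 libraries, error bars for SD and points for the libraries. Licensing, firing and fork sums are lowest in KO starved and highest in WT starved libraries, and the nucleotide supply sum is low in starved libraries of both genotypes.

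Of the 4 nucleotide supply genes, 3 fell with starvation in KO cells and 3 in WT cells, against 9.78% and 18.0% of all genes tested. Summed over the 4 genes, the level was 410.3 and 409 CPM in KO starved, 837 and 843 in KO rich, 472 and 487 in WT starved and 860.0 and 853 in WT rich libraries. Rrm2 encodes the regulated small subunit of ribonucleotide reductase. It had 76.8 and 79.5 CPM in KO starved, 218 and 228 in KO rich, 90.6 and 89.1 in WT starved and 195 and 200.5 in WT rich libraries. Rrm2 fell in KO (-1.51 ± 0.11, adjusted p = 0.00080) and in WT (-1.14 ± 0.11, adjusted p = 0.000692), and both calls held with each library left out. The responses did not pass the test of a difference (-0.37 ± 0.16, adjusted p = 0.161). Rrm1 encodes the large subunit. It had 217 and 213 CPM in KO starved, 461 and 394 in KO rich, 262 and 279 in WT starved and 432 and 410.0 in WT rich libraries. It also fell in both, at -0.99 ± 0.13 (adjusted p = 0.00415) in KO and -0.64 ± 0.13 (adjusted p = 0.00936) in WT. These calls were lost without either KO starved library (adjusted p up to 0.0649) and any 1 of the 4 WT libraries (adjusted p up to 0.0857).

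Tk1 encodes the thymidine kinase of the salvage route. It had 42.7 and 44.96 CPM in KO starved, 47.5 and 117 in KO rich, 30.9 and 33.8 in WT starved and 125 and 132 in WT rich libraries. Its log2 change was -0.92 ± 0.36 (adjusted p = 0.121) in KO cells, whose rich libraries differed by more than 2-fold, and -1.99 ± 0.37 (adjusted p = 0.00709) in WT cells, adjusted p up to 0.0704 without a WT starved library. Tyms encodes thymidylate synthase. It had 73.9 and 71.6 CPM in KO starved, 109 and 104 in KO rich, 88.1 and 85.1 in WT starved and 108 and 111 in WT rich libraries. It fell in KO (-0.55 ± 0.11, adjusted p = 0.018, lost with 6 of the 8 libraries left out, adjusted p up to 0.175) and stood at -0.33 ± 0.11 (adjusted p = 0.0584) in WT. For the 4 nucleotide genes, 0 passed the test of the difference between responses (1 negative and 0 positive at an unadjusted p under 0.05). The share of all genes tested was 5.91% negative and 7.42% positive. In the comparison of KO with WT after starvation 0 passed (1 lower and 0 higher unadjusted), against 26.8% lower and 27.8% higher of all genes. DESeq2, and limma-voom without library quality weights, gave 0 calls after starvation too. Without a KO rich library edgeR did call nucleotide genes in that comparison, but it then called most of the genes tested. The same held for limma-voom with library quality weights and for edgeR on only the 4 libraries compared. Each called 5 of the 48 genes higher and 42 lower, so nucleotide genes were among them. The shares of all genes were 39.7% and 40.8% with the weights, and 40.6% and 41.8% with 4 libraries.

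All 3 G1/S regulators were higher in KO than in WT cells in rich medium, against 23.4% of all genes tested. All 3 fell with starvation in KO cells, against 9.78%. Ccne1 encodes cyclin E1. It had 16.8 and 14.8 CPM in KO starved, 85.8 and 69.9 in KO rich, 6.06 and 4.85 in WT starved and 20.2 and 17.6 in WT rich libraries. With starvation its log2 change was -2.29 ± 0.19 (adjusted p = 0.00115) in KO and -1.79 ± 0.20 (adjusted p = 0.00101) in WT, and KO stood above WT in both media (1.54 ± 0.20, adjusted p = 0.000578 starved and 2.04 ± 0.19, adjusted p = 0.000213 rich). These Ccne1 calls held with each library left out, and the responses differed by -0.50 ± 0.27 (adjusted p = 0.26), short of the threshold. Ccne2 encodes cyclin E2. It had 26.7 and 25.9 CPM in KO starved, 233 and 85.9 in KO rich, 46.9 and 46.0 in WT starved and 62.3 and 57.5 in WT rich libraries. Its KO rich libraries differed more than 2-fold. The rich-medium difference was 1.41 ± 0.40 (adjusted p = 0.0257), lost with 5 of the 8 libraries left out (adjusted p up to 0.13). It fell in KO, at -2.60 ± 0.42 (adjusted p = 0.00812), a call lost without either KO starved library (adjusted p up to 0.0888). The difference of -2.23 ± 0.56 (adjusted p = 0.0438) was lost with 6 of the 8 libraries left out (adjusted p up to 0.166). E2f1 encodes an activating E2F factor. It had 71.9 and 68.8 CPM in KO starved, 107 and 142 in KO rich, 126 and 125 in WT starved and 57.4 and 61.4 in WT rich libraries. It fell in KO (-0.83 ± 0.16, adjusted p = 0.0139) and rose in WT (1.08 ± 0.16, adjusted p = 0.00281), the KO call lost without either KO starved library (adjusted p up to 0.138). The difference of -1.91 ± 0.22 (adjusted p = 0.00325) held throughout. Between KO and WT it differed by -0.84 ± 0.16 (adjusted p = 0.00348) after starvation and by 1.07 ± 0.16 (adjusted p = 0.00165) in rich medium.

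Of the 6 origin recognition genes, 2 fell and 1 rose in KO cells and 1 rose in WT cells. The shares of all genes tested were 9.78%, 8.44% and 14.8% in the same order. After starvation 2 of the 6 were lower and 2 higher in KO than in WT, against 26.8% and 27.8% of all genes tested. Orc1 encodes the subunit made in G1 and S phase. It had 15.1 and 13.4 CPM in KO starved, 40.5 and 34.6 in KO rich, 41.4 and 40.2 in WT starved and 30.8 and 28.9 in WT rich libraries. Its response was -1.39 ± 0.16 (adjusted p = 0.00262) in KO (adjusted p 0.0518 without KO starved library 2) and 0.45 ± 0.15 (adjusted p = 0.0567) in WT. The difference of -1.84 ± 0.22 (adjusted p = 0.00325) held with each library left out. Orc6 also fell in KO (-0.90 ± 0.19, adjusted p = 0.0206) with a difference of -1.34 ± 0.27 (adjusted p = 0.020), both lost with 6 of the 8 libraries left out (adjusted p up to 0.157). Orc2 encodes a core subunit. It had 138 and 138 CPM in KO starved, 106 and 83.7 in KO rich, 109.5 and 106 in WT starved and 84.2 and 80.9 in WT rich libraries. Its KO call of 0.54 ± 0.14 (adjusted p = 0.040) was lost with 6 of the 8 left out (adjusted p up to 0.221). Orc5 was higher in KO in both media (1.01 ± 0.17, adjusted p = 0.00228 starved and 0.74 ± 0.17, adjusted p = 0.0124 rich, adjusted p 0.0848 without a WT rich library). Orc3 had 122 and 113 CPM in KO starved, 219.8 and 103 in KO rich, 53.8 and 48.8 in WT starved and 63.6 and 62.4 in WT rich libraries. It was higher in KO in both media, by 1.19 ± 0.31 (adjusted p = 0.0149) starved and 1.36 ± 0.31 (adjusted p = 0.0119) rich. These calls were lost with a WT library left out, or a KO starved one in the first case (adjusted p up to 0.0967 and 0.0755). Orc4 had 79.3 and 76.2 CPM in KO starved, 76.8 and 41.2 in KO rich, 82.0 and 83.5 in WT starved and 48.0 and 44.0 in WT rich libraries. It rose in WT by 0.85 ± 0.26 (adjusted p = 0.0449), a call lost with 6 of the 8 left out (adjusted p up to 0.21).

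**Figure D5:**
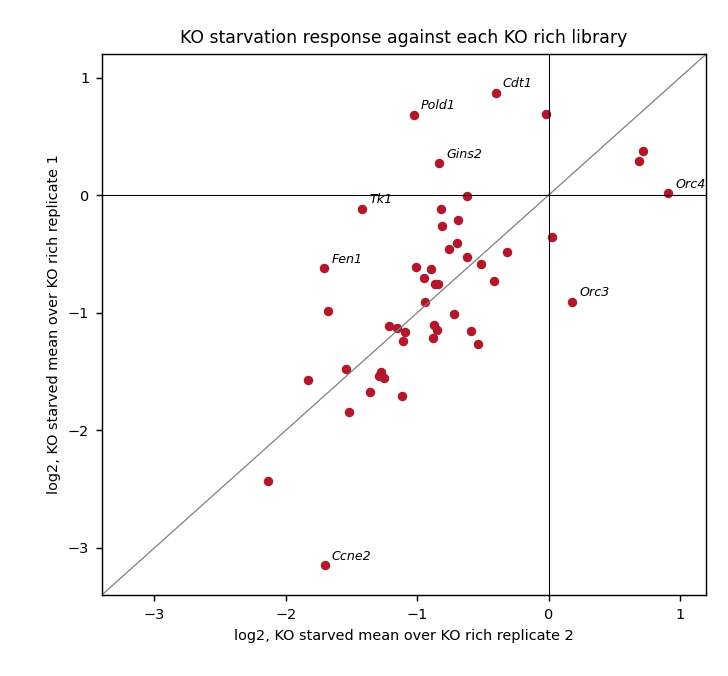
Log2 of the mean KO starved CPM over the CPM of KO rich library 2 (x axis) and of KO rich library 1 (y axis) for the 48 genes, with the line of equality. Against library 1, 41 genes lie below 0 and against library 2, 43 do, and Cdt1, Pold1 and Tk1 are among the genes far from the line.

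The KO rich libraries were also used singly, as a description. KO starved means lay below KO rich library 1 in 41 of the 48 genes, with a median log2 ratio of -0.76, and below library 2 in 43, with a median of -0.87. In all, 7 genes differed more than 2-fold between the KO rich libraries: Pold1, Tk1, Cdt1, Gins2 and Fen1 were lower in library 1, with log2 ratios of -1.71, -1.30, -1.27, -1.10 and -1.09 over library 2, and Orc3 and Ccne2 higher, with 1.09 and 1.44. The sign of the ratio depended on which of these libraries was used for Orc3, Cdt1, Dbf4, Gins2, Pold1 and Pold2.

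Further genes of the pathway were taken from lists beside the 48. Of 21 other fork genes, 10 fell in KO, 2 fell and 5 rose in WT, and 14 were lower and 2 higher in KO after starvation, with a more negative KO response in 9. Over all genes tested, 9.78% fell in KO, and 18.0% fell and 14.8% rose in WT. After starvation 26.8% were lower and 27.8% higher in KO, and 5.91% had a more negative KO response. Timeless encodes a part of the fork protection complex. It had 63.7 and 66.2 CPM in KO starved, 83.6 and 109 in KO rich, 444 and 446 in WT starved and 175 and 175 in WT rich libraries. Its responses were -0.57 ± 0.15 (adjusted p = 0.0391) in KO and 1.35 ± 0.15 (adjusted p = 0.00108) in WT, and the difference was -1.92 ± 0.21 (adjusted p = 0.00274). Clspn encodes the checkpoint mediator claspin. It had 45.5 and 44.1 CPM in KO starved, 178 and 146 in KO rich, 164 and 162 in WT starved and 146 and 154 in WT rich libraries. Its difference between responses was -1.97 ± 0.19 (adjusted p = 0.00185). Top2a encodes the topoisomerase of S to M phase. It had 418 and 399 CPM in KO starved, 1085 and 726 in KO rich, 274 and 275 in WT starved and 1067 and 1062 in WT rich libraries. It fell in both genotypes, at -1.15 ± 0.19 (adjusted p = 0.00914) in KO and -1.96 ± 0.20 (adjusted p = 0.00073) in WT. Top2a was 1 of the 2 genes of this list that were higher in KO after starvation, by 0.57 ± 0.19 (adjusted p = 0.0360).

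Of 13 other deoxynucleotide genes, 3 fell and 1 rose in KO, 2 fell and 5 rose in WT, and 2 had a more negative KO response. Dck encodes deoxycytidine kinase. It had 19.2 and 17.5 CPM in KO starved, 66.1 and 54.7 in KO rich, 48.8 and 46.8 in WT starved and 64.6 and 65.4 in WT rich libraries. Dck fell in KO, at -1.72 ± 0.15 (adjusted p = 0.00129), with a difference between responses of -1.27 ± 0.20 (adjusted p = 0.00940). Dut encodes the enzyme that removes dUTP. It had 80.9 and 75.1 CPM in KO starved, 189 and 148 in KO rich, 47.5 and 55.1 in WT starved and 84.8 and 87.6 in WT rich libraries. It fell in both, at -1.11 ± 0.16 (adjusted p = 0.00542) in KO and -0.75 ± 0.16 (adjusted p = 0.0113) in WT. Dut was higher in KO than in WT after starvation, by 0.60 ± 0.16 (adjusted p = 0.0143). Of the 13 genes, 4 were lower and 2 higher in that comparison, against 26.8% and 27.8% of all genes tested. Among de novo synthesis genes, of 12 purine genes 2 fell and 1 rose in KO and 1 rose in WT, and of 6 pyrimidine genes 1 fell and 1 rose in KO and 1 fell in WT. Over all genes tested, 9.78% fell and 8.44% rose in KO, and 18.0% fell and 14.8% rose in WT. Paics, of purine synthesis, fell in KO, at -0.87 ± 0.11 (adjusted p = 0.00429), and Impdh2, the guanine branch enzyme, rose in WT by 1.09 ± 0.21 (adjusted p = 0.00796). The difference between responses was -1.01 ± 0.16 (adjusted p = 0.00907) for Paics and -0.87 ± 0.29 (adjusted p = 0.100) for Impdh2, which did not pass.

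Of 18 other G1/S control genes, 11 fell in KO, and 7 fell and 2 rose in WT, while 7 had a more negative KO response. The shares over all genes tested were 9.78%, 18.0%, 14.8% and 5.91% in the same order. Cdk2 encodes the partner kinase of cyclins E and A. It had 15.9 and 15.7 CPM in KO starved, 53.9 and 61.3 in KO rich, 75.4 and 70.8 in WT starved and 122 and 126 in WT rich libraries. It was lower in KO in both media, at -2.21 ± 0.13 (adjusted p = 2.22e-05) starved and -1.11 ± 0.13 (adjusted p = 0.000522) rich. Cdkn1a encodes the p21 inhibitor of these kinases. It had 133 and 139 CPM in KO starved, 69.6 and 132 in KO rich, 64.2 and 69.3 in WT starved and 13.9 and 19.3 in WT rich libraries. Its log2 change was 0.43 ± 0.29 (adjusted p = 0.345) in KO and 2.00 ± 0.31 (adjusted p = 0.00338) in WT, and KO was above WT in rich medium by 2.60 ± 0.31 (adjusted p = 0.000659). The Cdkn1a responses differed by -1.58 ± 0.42 (adjusted p = 0.0502), short of the threshold. Ccna2 encodes cyclin A2. It had 188 and 173 CPM in KO starved, 374 and 275 in KO rich, 106 and 103 in WT starved and 342 and 316 in WT rich libraries. It had log2 changes of -0.85 ± 0.17 (adjusted p = 0.0161) in KO and -1.65 ± 0.17 (adjusted p = 0.000805) in WT. Ccna2 was higher in KO than in WT after starvation, by 0.79 ± 0.17 (adjusted p = 0.00611). Of the 18 genes, 8 were lower and 5 higher in that comparison, against 26.8% and 27.8% of all genes tested. Of 7 genes for chromatin assembly behind the fork, 6 fell in KO and 1 in WT, with 5 more negative in KO. Chaf1b encodes a subunit of the CAF-1 chaperone. It had 19.5 and 20.9 CPM in KO starved, 42.2 and 42.4 in KO rich, 65.4 and 65.4 in WT starved and 57.8 and 51.7 in WT rich libraries. Its difference between responses was -1.33 ± 0.19 (adjusted p = 0.00596).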

How the data were processed

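Bulk RNA from 8 libraries, 2 per group, was used. Read counts per RefSeq transcript were deposited by the authors as 1 table; per the submitters' processing notes, TopHat2 2.0.9, bedtools and the mm9 build were used, while the use of strand and of multi-mapping reads is not stated there. For each symbol the transcript with the highest total was kept (16 of the 48 genes have several). In R 4.3.3, edgeR 4.0.16 (filterByExpr, TMM, glmQLFit and glmQLFTest, 1 mean per group) was fitted to 13882 genes, with Benjamini-Hochberg adjustment over all of them and a threshold of 0.05; the fit was tested on simulated data. The SE is the log2 fold change divided by the root of F. Alternatives used limma 3.58.1 and DESeq2 1.42.0. CPM are counts scaled to library size with TMM factors, and the CPM given for 3 counts is that scaling alone, without an interval. The members and lists were chosen with earlier results of these data known, so no list is tested. Every member could be named, and from each further list the 2 genes with the smallest p in a comparison; Carm1 was named as a check. RefSeq promoter windows are of GRCm38.p6, not the build of the counts, and were used for letters alone. Replicate numbers were not treated as pairs.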

Additional observations from a re-analysis of the deposited data

Results flagged for a closer look

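The response to starvation differed between Carm1 KO and WT cells for 28 of the 48 genes, by edgeR's test of the KO log2 change minus the WT log2 change, adjusted over all genes tested. All 28 values are negative. Among licensing genes the values were -2.67 for Cdc6, -1.61 for Gmnn, -1.01 for Mcm3, -1.59 for Mcm4, -1.25 for Mcm6 and -0.96 for Mcm7. Among origin firing genes the values were -1.70 for Mcm10, -1.81 for Cdc45, -1.90 for Cdc7, -1.30 for Gins1, -1.95 for Gins3 and -1.41 for Gins4. Among fork genes the values were -1.38 for Pcna, -0.80 for Rfc1, -0.99 for Rfc3, -1.19 for Rfc4, -0.93 for Rfc5 and -1.24 for Pola2. Further fork genes had -2.22 for Prim1, -1.24 for Pole, -1.18 for Pole2, -0.72 for Rpa1, -1.71 for Rpa2 and -1.75 for Lig1. Among origin recognition genes the values were -1.84 for Orc1 and -1.34 for Orc6. Among G1/S regulators the values were -2.23 for Ccne2 and -1.91 for E2f1. With each library left out in turn, 10 of these calls held: Orc1, Cdc6, Mcm4, Mcm6, Mcm10, Cdc45, Gins3, Prim1, Lig1 and E2f1. Groups of 2 libraries are too small for a search for outlying samples.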

How the results depend on the processing

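With 1 library left out, KO starvation calls ranged over 8 to 42 lower and 0 to 4 higher, WT starvation over 2 to 11 lower and 3 to 27 higher, KO against WT after starvation over 30 to 42 lower and 2 to 5 higher, KO against WT in rich medium over 1 to 18 lower and 2 to 17 higher, and the difference between responses over 10 to 39 negative and 0 to 5 positive. The median log2 changes over the 48 genes then lay between -0.88 and -0.75, 0.19 and 0.22, -1.19 and -1.14, -0.06 and -0.03, and -1.11 and -0.94 in the same order. Where a group then held 1 library, it was assumed to vary like the others. Calls over all genes tested mostly shifted along with those of the 48. Limma-voom with library quality weights gave 25 higher and 9 lower for WT starvation, against 33.8% and 33.9% of all genes. For KO starvation it gave 0 higher, against 4.34%, and in rich medium 6 lower, against 10.3%. After starvation it gave 5 higher, against 39.7%, and for the difference 1 positive, against 9.53%. Fitting only the 4 libraries compared gave 27 higher and 10 lower for WT starvation, against 36.4% and 35.6% of all genes. It gave 0 of either for KO starvation, and 2 higher and 1 lower in rich medium, against 13.2% and 11.4%. After starvation it gave 5 higher and 42 lower, against 40.6% and 41.8%. Fewer libraries enter that estimate of spread. The single KO starvation call upward, Orc2, was lost (0 higher) with RLE size factors, no filter, a stricter filter, the replicate block and the transcript of lowest total. RLE scaling moved the KO starvation median to -0.90, and total counts moved it to -0.91, the rich-medium median to -0.12 and the starved one to -1.29, where the median of all genes moved to -0.14. Without KO rich library 2 the median difference of all genes was 0.18. Reversals that involved a call came with a KO rich library left out. Their values were, without library 1 and then without library 2, Orc3 (0.20 and -0.90), Cdt1 (-0.38 and 0.88) and Pold1 (-1.01 and 0.70) with starvation in KO, Mcm2 (0.20 and -0.39) and Orc6 (-0.35 and 0.25) in rich medium and Orc3 (0.52 and -0.60) in the difference. The cause was not tested. Same-numbered libraries deviated together by correlations of -0.03 to 0.06, so the numbers were not taken as pairs; with the replicate as a block, KO starvation lowered 31 genes, WT starvation raised 12 and lowered 4, KO was lower for 35 and higher for 3 after starvation and lower for 8 and higher for 9 in rich medium, and the difference was negative for 25 and positive for 0. Groups of 2 and the shallow KO rich library 1 limit precision.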

Other observations

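Ratios of gene counts within a library are given as values, without a test. The ratio of Cdt1 to Gmnn counts was 6.66 and 6.79 in KO starved, 1.01 and 3.08 in KO rich, 4.81 and 4.88 in WT starved, and 2.19 and 2.17 in WT rich libraries. It was thus above all rich libraries in the starved libraries of both genotypes. The ratio of Cdc7 to Dbf4 counts was 0.223 and 0.158 in KO starved, 0.470 and 0.493 in KO rich, 0.540 and 0.4999 in WT starved, and 0.354 and 0.361 in WT rich libraries. The ratio of Prim1 to Prim2 counts was 0.491 and 0.592 in KO starved, 1.26 and 0.939 in KO rich, 1.71 and 1.76 in WT starved, and 1.09 and 1.09 in WT rich libraries, so that both pairs were lowest in KO starved cells. Ccne1 over Ccne2 counts were 0.632 and 0.573 in KO starved, 0.368 and 0.814 in KO rich, 0.129 and 0.105 in WT starved, and 0.325 and 0.306 in WT rich libraries. Gene length does not enter the comparison of a ratio between libraries.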
